A study of Mus musculus with 9 samples.

Results

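The sham operation time course follows the sites occupied by XBP1 in mouse liver from the basal state to 6 h and 48 h after a sham operation. Its members are the peaks of the basal, sham 6 h and sham 48 h lists, 30191 of the 64078 peaks in the 8 lists of the series, and merging them by an overlap of at least 1 bp gave 23212 sites. XBP1 was mapped by chromatin immunoprecipitation and sequencing (ChIP-seq) with the antibody anti-XBP1 M-186. All 3 livers came from wildtype mice of strain C57Bl6-J, and operations were done at 8 weeks of age. The sham animals had the abdomen opened, the falciform ligament cut and the liver lobes exposed, with no liver removed, and the basal liver is labelled as neither sham nor hepatectomy. The protocols name an adenovirus with a control hairpin, but the labels do not say whether these livers received it or how many animals gave the material of each library.

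There was 1 library per time, so the spread between animals is unknown and the times were compared without a test. Shares are given with exact Clopper-Pearson 95% intervals, which cover counting error only. Read depth per library was not given in the sources used here, and fewer called sites cannot be told apart from a shallower library. The score of a peak is the authors' own value, taken here as −log10 of a p-value, and since its scale may differ from list to list, peaks were described by their rank within a list. Sites are given by mm9 coordinates, since no mm9 gene annotation was used here, and for the same reason the tissue label was not checked against marker genes and no sequence is shown.

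XBP1 is a bZIP transcription factor whose active form arises when the endoplasmic reticulum stress sensor IRE1 splices its messenger RNA. It switches on genes for chaperones, protein export and disposal of misfolded proteins, and hepatocytes, which secrete most plasma proteins, depend on this machinery. Surgery without removal of liver is known to set off an acute-phase response, in which hepatocytes raise their output of secreted defence proteins. The sham operation is the control surgery for partial hepatectomy, so its course addresses what happens at XBP1 sites without the loss of liver tissue.

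The basal list held 2482 peaks, the 6 h list 23087 and the 48 h list 4622, and the 3 lists were close to nested. Sites with a peak at 6 h alone made up 18214 of the 23212 (78.5% of all sites). A further 2444 sites (10.5%) had a peak at 6 h and 48 h but not in basal liver. In all 3 lists 2016 sites (8.69%) had a peak. A smaller class of 399 sites (1.72%) had basal and 6 h peaks and none at 48 h. The classes without a 6 h peak were small, with 101 sites at 48 h alone (0.435%), 34 in basal liver alone (0.146%) and 4 in basal liver and at 48 h (0.0172%). Thus the basal and 48 h sites lay almost wholly within the 6 h set, and sites that skipped 6 h were rare.

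**Figure D1:**
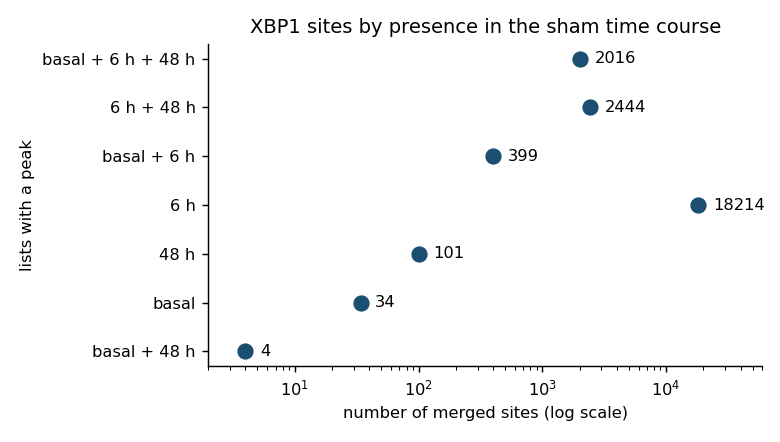
Number of merged XBP1 sites (x axis, log scale) for each combination of lists with a peak (y axis), with 1 library per time. The 18214 sites of the 6 h list alone outnumber all other classes, and the 3 classes without a 6 h peak hold 101, 34 and 4 sites.

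Counted by peaks, 2037 of the 2482 basal peaks (82.1%, 80.5 to 83.6%) were found at both later times. A further 406 (16.4%, 14.9 to 17.9%) were found at 6 h and not at 48 h, and 34 (1.37%) at neither time. Of the 23087 peaks at 6 h, 78.9% (78.4 to 79.4%) were found in neither other list. Of the 4622 peaks at 48 h, 2486 (53.8%, 52.3 to 55.2%) were found at 6 h and not in basal liver, and 2031 (43.9%, 42.5 to 45.4%) in both. When each list was limited to its 2482 highest-scoring peaks, 50.8% of the basal peaks were found at both later times and 29.6% of the 6 h peaks in neither list. The share of 48 h peaks found at 6 h and not in basal liver was then 11.7%. The share of basal peaks found at both later times depended on the overlap asked for, and was 42.7% when 50% of both peaks had to overlap. Of the 39 basal peaks without a 6 h peak, 3 lay within 100 bp of one, and none of the 2443 with a 6 h peak shared 50 bp or less with it. Of the 105 peaks at 48 h without a 6 h peak, 21 lay within 500 bp of one, and their median gap was 7.24 kb.

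Whether a site was found at another time followed its score. In the highest decile of the basal list, with scores of at least 40.69, all 248 peaks had a partner in both later lists. In the lowest decile 96.4% were still found at 6 h, but 64.7% (58.4 to 70.6%) at 48 h. Among 6 h peaks the highest decile was found at 60.8% in basal liver and at 78.9% at 48 h. These shares were 2.86% and 9.14% in the fifth decile, and 0.303% and 1.43% in the lowest. In each decile the 6 h peaks were thus found more often at 48 h than in basal liver, whose list is the shorter. The 48 h peaks were found at 6 h at 94.0% even in their lowest decile, while the share found in basal liver went from 98.9% in the highest decile to 11.0% in the lowest.

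**Figure D2:**
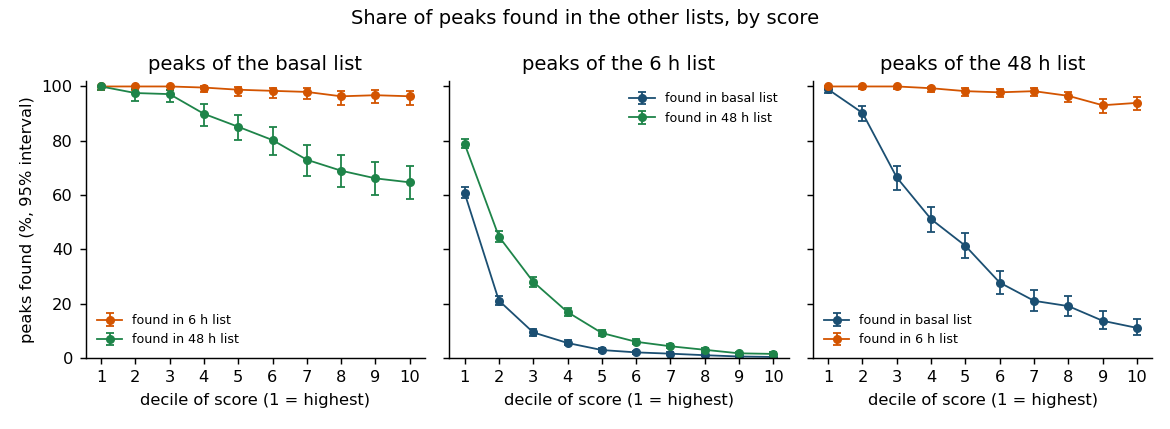
Share of peaks found in another list (y axis, percent with Clopper-Pearson 95% interval) by decile of score (x axis, 1 is the highest) for the basal, 6 h and 48 h lists. Basal and 48 h peaks are found at 6 h at 93% or more in every decile, while 6 h peaks are seldom found elsewhere below the highest deciles.

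The sites in all 3 lists ranked high in the 6 h list and made up most of the basal list. Their median rank was 1375 of 23087 at 6 h, within the best 5.96% of that list. The median for sites at 6 h and 48 h was 4928.75, for sites in basal liver and at 6 h 5128, and for sites at 6 h alone 13595. In the 48 h list the sites shared by all had a median rank of 1141.5 and the sites absent from basal liver one of 3051.5, of 4622. In the basal list the sites shared by all had a median rank of 1068 and those missing at 48 h one of 1822.5, of 2482. By median rank the shared sites thus stood ahead of the other classes in each list.

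Of the 100 highest-scoring basal peaks, 70 were among the 100 highest at 6 h and 85 among those at 48 h. The 5 sites with the best mean rank over the 3 lists, a choice that keeps them near the top, are given as a description. The first lay on chromosome 2 (34626918 to 34628261) and ranked 1, 2 and 2 in basal liver, at 6 h and at 48 h. The site on chromosome 10 (86167861 to 86169337) ranked 2, 6.5 and 1, and the site on chromosome 3 (95754344 to 95755450) ranked 4, 5 and 6. A site on chromosome 2 (143990650 to 143992226) ranked 13, 1 and 9, and another on chromosome 2 (75496336 to 75497497) ranked 6, 10.5 and 11. These 5 sites were also called in every one of the 3 lists from livers silenced for XBP1 with a short hairpin RNA. Of the 2016 shared sites, 5.75% were called in the silenced basal list, 79.9% in that of 6 h and 3.22% in that of 48 h. At ranks 1 to 500 of the sham 6 h list, 97.3% of the shared sites were called in the silenced 6 h list. The 5 highest basal scores hold 3 of the 5 sites with the best mean rank. Of the others, the site on chromosome 11 (50138704 to 50140128) ranked 3 in basal liver, 34.5 at 6 h and 3 at 48 h. The site on chromosome 3 (65195040 to 65197012) ranked 5, 24 and 23.5.

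Below the top, the order of the 2016 shared sites changed at many places. Ranks among these sites changed by a median of 14.3% of the sites from basal liver to 6 h, 13.6% from 6 h to 48 h and 12.3% from basal liver to 48 h. A rank better by at least 25% of the sites (504 ranks) at 6 h than in basal liver was found at 295 sites (14.6% of the 2016), and one worse by as much at 303 (15.0%). From 6 h to 48 h the numbers were 257 (12.7%) better and 264 (13.1%) worse, and from basal liver to 48 h 250 (12.4%) better and 248 (12.3%) worse. At 1055 sites (52.3%) no pair of lists differed by as much. Of the 295 sites that ranked better at 6 h, 135 ranked worse by at least 25% of the sites from 6 h to 48 h. At 48 h, 175 of the 295 stood within 25% of their basal rank and 117 still ranked better. Of the 303 that ranked worse, 117 ranked better by as much from 6 h to 48 h. At 48 h, 195 of the 303 stood within 25% of their basal rank and 106 still ranked worse. These sites were chosen by their basal and 6 h ranks, and how far that choice gives the return was not tested. Of the 519 sites in the best 25% of basal ranks, 351 (67.6%) were in the best 25% at 6 h and 380 (73.2%) at 48 h. Spearman's rho across the 2016 sites, given as a description without a test, was 0.64 for basal liver and 6 h, 0.69 for 6 h and 48 h and 0.70 for basal liver and 48 h.

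**Figure D3:**
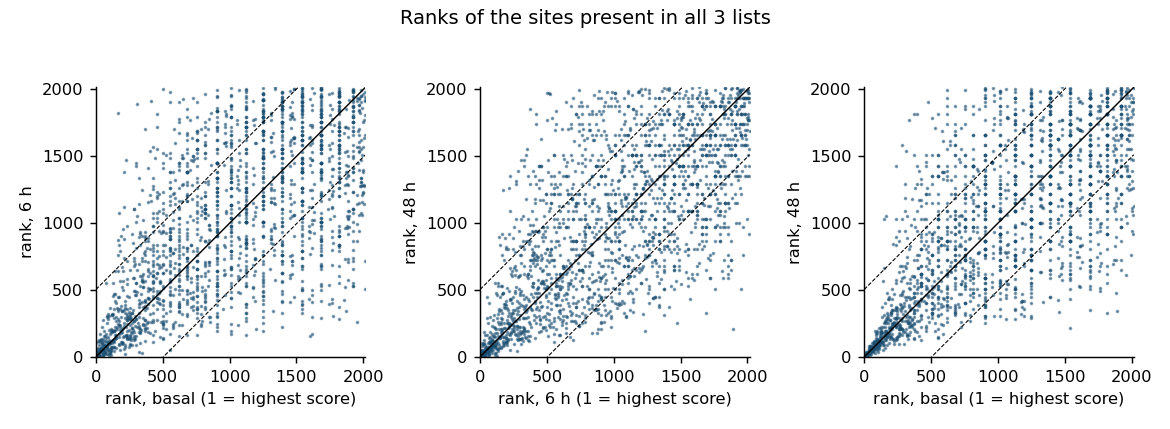
Ranks of the 2016 sites present in all 3 lists (1 is the highest score), with 1 point per site, for basal liver and 6 h, 6 h and 48 h, and basal liver and 48 h. The solid line marks equal rank and the dashed lines a change by 504 ranks; points crowd the line at the best ranks and spread with lower rank, where many sites tie in score.

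Libraries of the same time differed too. There was no replicate, but partial hepatectomy, in which most of the liver is taken out, had a library at each time, and 1858 sites had a peak in all 5 unsilenced lists. Among these, 15.3% ranked better and 15.2% worse by at least 25% of the sites in the hepatectomy than in the sham library at 48 h. At 6 h these shares were 8.61% and 9.47%. For the same sites, basal liver against sham 6 h gave 14.5% better and 14.6% worse, and sham 6 h against sham 48 h 13.3% and 13.9%. Basal liver against sham 48 h gave 12.2% better and 11.5% worse. For all 3 pairs of the sham course these shares lay below those between the operations at 48 h and above those between them at 6 h. With 1 library each, time and library cannot be told apart.

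The libraries also went together in a way their labels do not give. Across the 1858 sites the sham 6 h ranks had a rho of 0.79 with hepatectomy at 6 h and of 0.79 with hepatectomy at 48 h, against 0.68 with the sham 48 h ranks. The sham 48 h ranks had a rho of 0.76 with hepatectomy at 6 h, and of 0.63 with hepatectomy at 48 h, the library of the same time. Basal ranks had the highest rho, 0.71, with sham 48 h. Among the 2482 highest-scoring peaks of each list, 67.2% of the sham 48 h peaks were found in hepatectomy at 6 h and 59.4% in hepatectomy at 48 h. These shares were 73.4% and 63% among the 500 highest and 71.9% and 61.7% among the 1000 highest. Among the 100 highest both were 75%, and among the 250 highest they were 69.6% and 70.8%. Of the 2482 highest sham 6 h peaks, 70.8% were found in hepatectomy at 6 h and 65.4% in hepatectomy at 48 h. All points share their sites and antibody, and what separates these libraries was not tested.

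**Figure D4:**
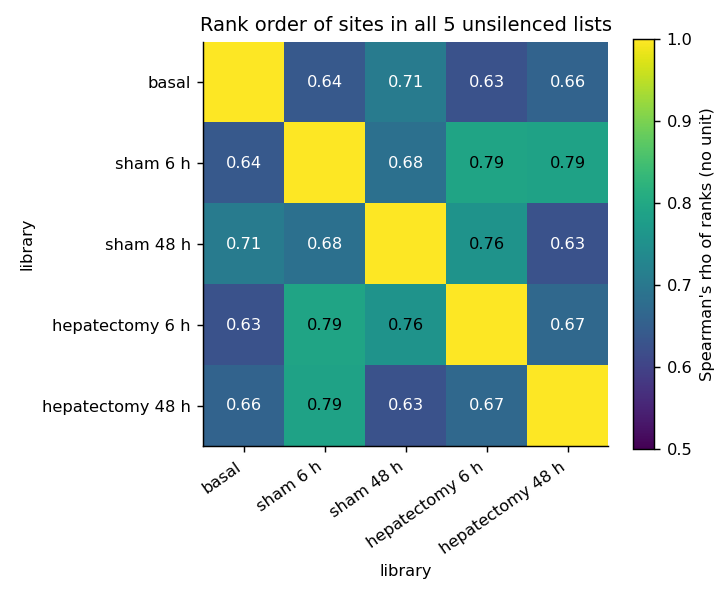
Spearman's rho (colour and number) of the ranks of 1858 sites with a peak in all 5 unsilenced lists, for each pair of libraries on both axes. The sham 48 h library is closer in order to hepatectomy at 6 h (0.76) than to hepatectomy at 48 h (0.63).

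The hepatectomy lists, which did not choose them, were read at the sites that moved between the sham times. Of the 257 sites that ranked better at sham 48 h than at sham 6 h, 221 had a peak in both hepatectomy lists. There, 84 ranked better and 137 worse at 48 h than at 6 h after hepatectomy. Of the 264 sites that ranked worse at sham 48 h, 256 had both hepatectomy peaks, and 149 of them ranked better and 107 worse at 48 h after hepatectomy. In both groups the larger number thus ranked the opposite way between the hepatectomy libraries. These counts are not separate from the order of the libraries given above. The sham 48 h ranks had a rho of 0.76 with hepatectomy at 6 h and of 0.63 with hepatectomy at 48 h. Choice by the sham 48 h rank thus makes a hepatectomy rank nearer to it at 6 h than at 48 h likely. Whether these sites change differently over time after the operations was not tested, since time and library cannot be told apart. Of the 1381 sites within 25% between the sham times, 682 ranked better and 696 worse at 48 h after hepatectomy. Of the 295 sites that ranked better at sham 6 h than in basal liver, 283 were among the 1858. Their median rank, as a percent of the 1858 ranks, was 85.6% in basal liver, 39.7% at sham 6 h, 49.5% at hepatectomy 6 h and 49.1% at hepatectomy 48 h. The basal and sham 6 h values are those that chose these sites.

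The 5 largest rises from basal liver to 6 h took sites from the worst 25% of the basal ranks to the best 25%. Sites were chosen among the best 25% of either list, which fixes this end for a rise. The site on chromosome 14 (8931914 to 8932742) went from rank 1955 to 259 and stood at 610.5 at 48 h. A site on chromosome 19 (32289415 to 32290507) went from 1817.5 to 281 and back to 1393.5, and that on chromosome 10 (76557424 to 76558209) from 1868.5 to 341.5 and back to 1509.5. The sites on chromosome 18 (60765506 to 60766521) and chromosome 1 (184514167 to 184514769) went from 1774 to 309 and 701, and from 1603.5 to 153 and 533. So 3 of these 5 kept a better rank than in basal liver by over 1000 places at 48 h. All 5 had a peak 6 h after hepatectomy and in the silenced library of that time, as had 99.7% and 79.9% of the 2016 shared sites.

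The largest falls to 6 h, by rank among the shared sites, held sites that scored well in basal liver. Within the whole list their changes were smaller, from -6.96% of the list (chromosome X) to -43.9% (chromosome 7). In the longer 6 h list, 1979 of the 2016 shared sites stood nearer the top than in basal liver, and 37 further from it. Among the shared sites, the site on chromosome 4 (117670160 to 117670844) went from rank 161.5 to 1821 and to 1053 at 48 h. That on chromosome 16 (4964035 to 4964608) went from 409 to 1916 and to 1393.5, and that on chromosome 7 (148517886 to 148518248) from 503.5 to 2000.5 and to 1509.5. A site on chromosome X (47988330 to 47988766) went from 458.5 to 1815.5 and to 968.5. The remaining one, on chromosome 17 (39979810 to 39985890), was the widest of all 23212 sites at 6081 bp, against 3201 bp for the next. It ranked 309, 1891 and 211, with 3 peaks in the basal list, 4 at 6 h and 1 at 48 h, and it had a peak in all 8 lists of the series. It also gave the largest rise of rank from 6 h to 48 h.

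Other sites rose late by rank among the shared sites. Within the whole list the largest rises from 6 h to 48 h were smaller, between 6.89% of the list (chromosome 4) and 33.3% (chromosome 17). From 6 h to 48 h the site on chromosome 10 (128359843 to 128360794) went from rank 1690 to 330.5, after 1817.5 in basal liver. That on chromosome 17 (81463916 to 81464640) went from 1954 to 504, that on chromosome 7 (36587576 to 36588290) from 1756 to 504, and that on chromosome 4 (63007647 to 63008194) from 1471.5 to 257, its basal rank being 223. The first of these was among the largest rises from basal liver to 48 h too. The others in that group were on chromosome 17 (66472640 to 66473179), which ranked 1894, 968.5 and 341 over the 3 times, and chromosome 4 (108000589 to 108001233), which ranked 1885, 1040.5 and 480.5. On chromosome 17 (57136349 to 57136811) the ranks were 1686, 864 and 348, and on chromosome 19 (7457281 to 7457953) they were 1539, 331 and 213. In these 4 sites the rank improved at each step, but choice by the basal and 48 h ranks makes a 6 h rank in between likely. Of the 4, 2 on chromosome 17 had no peak 48 h after hepatectomy, which 92.5% of the 2016 shared sites had.

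Further sites ranked best at 6 h. The largest falls from 6 h to 48 h were on chromosome 10 (66546287 to 66546980), with ranks 756, 370.5 and 1850.5, and chromosome 3 (122322813 to 122324045), with ranks 1539, 502.5 and 1971. The site on chromosome 19 (42146267 to 42147119) ranked 1539, 419 and 1815.5, that on chromosome 5 (53597673 to 53598383) 1686, 419 and 1741.5, and that on chromosome 6 (37347847 to 37348582) 905.5, 502.5 and 1773.5. All 5 were called 48 h after hepatectomy as well, as were 92.5% of the 2016 shared sites. At the largest falls from basal liver to 48 h the ranks worsened at each step. Choice by the basal and 48 h ranks makes a 6 h rank in between likely. These falls lay on chromosome 16 (38057945 to 38058757, ranks 369.5, 864 and 1815.5), chromosome 14 (73809868 to 73810297, ranks 332.5, 920 and 1773.5) and chromosome 16 (44154599 to 44155256, ranks 475.5, 751.5 and 1903). The others were on chromosome 1 (174715953 to 174716455, ranks 392, 1415.5 and 1815.5) and chromosome 15 (100134298 to 100134945, ranks 284, 741.5 and 1587).

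Peaks at the shared sites were widest at 6 h. Over the 1958 sites with a single peak in each list, the 6 h peak was wider than the basal one at 1941, with a median ratio of 1.93 (quartiles 1.55 and 2.47). The 48 h peak was wider than the 6 h peak at 120, with a median ratio of 0.684, and wider than the basal peak at 1721, with a median ratio of 1.30. Midpoints lay apart by a median of 52.5 bp between basal liver and 6 h and by 36 bp between basal liver and 48 h, which is small against peak widths with medians of 341, 687 and 455 bp at the shared sites in the 3 lists. The shortest peak measured 227 bp in the basal list, 249 bp at 6 h and 266 bp at 48 h. The number of peaks per list was highest at 6 h as well, and its relation to width was not tested.

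Sites with a peak at 6 h and 48 h but none in basal liver numbered 2444, with median ranks of 4928.75 of 23087 at 6 h and 3051.5 of 4622 at 48 h. The highest-scoring at 6 h, on chromosome 1 (82812420 to 82813078), ranked 212 of 23087 at 6 h and 1022.5 of 4622 at 48 h. It was followed by sites on chromosome 15 (85607277 to 85608148), at 265.5 and 3767, and chromosome 4 (98234052 to 98234702), at 294.5 and 2548. Those on chromosome 2 (32243195 to 32245116) and chromosome 6 (134070156 to 134071137) ranked 302.5 and 304.5 at 6 h and 647.5 and 846.5 at 48 h. Of the 2444 sites, 96.0% had a peak 6 h after hepatectomy and 60.4% (58.4 to 62.3%) 48 h after it. Among sites at 6 h alone these shares were 67.8% and 16.2%. Within ranks 4001 to 8000 of the 6 h list, the shares 6 h after hepatectomy lay closer. They were 97.7% for sites at 6 h and 48 h and 92.6% for sites at 6 h alone. The shares 48 h after hepatectomy were 54.8% and 33.5% at these ranks.

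Sites of the 6 h list alone reached high ranks too. The first lay on chromosome 12 (45973528 to 45974196), at rank 273.5, and the next on chromosome 12 (83571466 to 83572029), at 278.5. Those on chromosome 18 (60368546 to 60369449), chromosome 4 (97526183 to 97526724) and chromosome 2 (84615611 to 84616301) ranked 348.5, 398 and 412. All 5 were called 6 h after hepatectomy, with and without silencing, as were all 7 sites of the class at ranks 1 to 500. Of the 5, 2 were called 48 h after hepatectomy. Over the class, 67.8% (67.1 to 68.5%) of the 18214 sites had a peak 6 h after hepatectomy and 16.2% (15.6 to 16.7%) 48 h after it. The median score of the class was 14.14, against 60.31 at 6 h for the sites in all 3 lists.

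Basal sites missing at 48 h stood low in the basal list, but the first of them did not. The highest, on chromosome 6 (29609789 to 29610464), ranked 356 of 2482 in basal liver and 199 of 23087 at 6 h, yet had no sham 48 h peak, while it was called at 48 h after hepatectomy. The sites on chromosome 10 (69427292 to 69427765) and chromosome 12 (77375017 to 77375494) ranked 372 and 384 in basal liver and 1207 and 996.5 at 6 h. Those on chromosome 15 (75035505 to 75036008) and chromosome 10 (69750428 to 69750942) ranked 433.5 and 466.5, then 4772.5 and 1375. Of the 399 sites, 300 (75.2%, 70.6 to 79.4%) were called 48 h after hepatectomy, against 16.2% of the sites at 6 h alone and 7 of the 34 in basal liver alone, which had no sham 48 h peak either.

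The classes without a 6 h peak held no high-ranking peak. At 48 h alone the best site, on chromosome 3 (5860694 to 5860974), ranked 1526 of 4622, followed by sites on chromosome 5 (147072413 to 147072973, rank 1628) and chromosome 16 (24091117 to 24091483, rank 1724.5). Those on chromosome 13 (64262872 to 64263251) and chromosome 15 (99868878 to 99869222) ranked 1892 each. In basal liver alone the best, on chromosome 15 (74837442 to 74837734), ranked 949 of 2482. The others lay on chromosome 5 (134817299 to 134817549 and 147606556 to 147606803, rank 1068 each), chromosome 1 (74282740 to 74283079, rank 1198.5) and chromosome 11 (75234568 to 75234838, rank 1354). The 4 sites in basal liver and at 48 h lay on chromosome 6 (70741753 to 70742174), chromosome 15 (88694345 to 88694715) and chromosome 16 (57391492 to 57391964 and 11143976 to 11144409), with basal ranks of 1354 to 2070. All 4 had a peak 6 h after hepatectomy. So had 73 of the 101 sites at 48 h alone (72.3%, 62.5 to 80.7%) and 22 of the 34 in basal liver alone (64.7%, 46.5 to 80.3%). Both intervals hold the share of the sites at 6 h alone, 67.8%, and among sites in all 3 lists it was 99.7%.

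The silenced livers, which the classes did not use, show which sites were still called with the hairpin against XBP1. The series holds such livers in the basal state and after hepatectomy, 7 days after the hairpin virus, and none after a sham operation. In the silenced hepatectomy library of 6 h, 79.9% (78.1 to 81.6%) of the sites in all 3 lists had a peak. This share was 39.9% (37.9 to 41.8%) for sites at 6 h and 48 h, 35.8% (31.1 to 40.8%) for sites in basal liver and at 6 h, and 7.32% (6.94 to 7.71%) for sites at 6 h alone. With the 2482 highest-scoring peaks of each sham course list, it was 92.0% for sites in all 3 lists and 52.7% for sites at 6 h alone. In the silenced basal library 116 of the 2016 shared sites (5.75%) had a peak, and 3 of all other sites did. In the silenced 48 h library 65 shared sites (3.22%) had a peak and 5 others.

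The order of the classes was also seen at middle ranks among sites of like rank at 6 h. Among sites ranked 4001 to 8000 in the 6 h list, silenced 6 h peaks were found at 60.3% (54.0 to 66.3%) of 257 sites in all 3 lists. They were found at 35.4% (32.0 to 38.9%) of 777 sites at 6 h and 48 h, 34.0% (24.9 to 44.0%) of 103 sites in basal liver and at 6 h, and 15.4% (14.0 to 16.8%) of 2678 sites at 6 h alone. From rank 1001 to 16000 the shared sites had the highest share and the sites at 6 h alone the lowest in each of the 4 bins. The order did not hold outside them. At ranks 501 to 1000 the share was 79.5% of 44 sites at 6 h alone and 62.5% of 16 sites in basal liver and at 6 h. At ranks 16001 to 23087 it was 8.33% of 12 shared sites and 10% of 30 sites in basal liver and at 6 h. At ranks 1 to 500 the sites at 6 h alone had a peak at 7 of 7. Ranks may still differ between classes within a bin, and sites are not replicates of a condition.

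**Figure D5:**
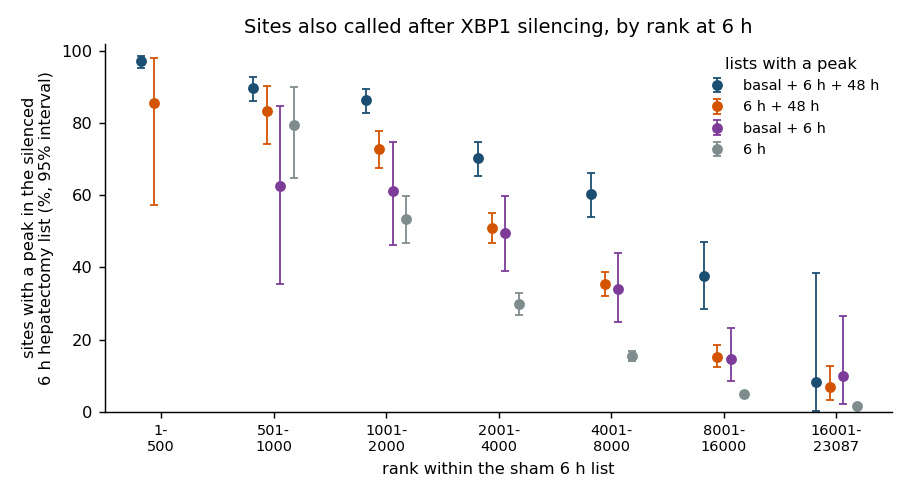
Share of sites called in the silenced 6 h hepatectomy library (y axis, percent with Clopper-Pearson 95% interval) by rank in the sham 6 h list (x axis, bins), for the 4 classes with a 6 h peak. Bins of a class with under 10 sites are left out; at ranks 4001 to 8000 the shares run from 60.3% for sites in all 3 lists to 15.4% for sites at 6 h alone.

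In the bins from rank 1001 on, the call 48 h after hepatectomy was more frequent at sites with a basal but no sham 48 h peak than at sites with a sham 48 h but no basal peak. At ranks 4001 to 8000, 74.8% (65.2 to 82.8%) of the sites in basal liver and at 6 h were called 48 h after hepatectomy, against 54.8% (51.2 to 58.4%) of the sites at 6 h and 48 h after sham. At ranks 8001 to 16000 the shares were 60.8% (50.6 to 70.3%) and 39.6% (35.5 to 43.8%). At ranks 2001 to 4000 they were 86.3% and 75.7%, with intervals that overlap. Sites in all 3 lists had 76.3%, 67.0% and 91.9% in the corresponding bins. These intervals cover counting error within single libraries, and no test between animals could be made.

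Another site lay within 10 kb of 59.2% (58.4 to 59.9%) of the sites at 6 h alone. This share was 58.4% (56.4 to 60.4%) for sites at 6 h and 48 h, 53.6% (51.4 to 55.8%) for sites in all 3 lists and 47.4% (42.4 to 52.4%) for sites in basal liver and at 6 h. The nearest other site lay at a median of 8.52 kb for sites in all 3 lists, 6.49 kb for sites at 6 h and 48 h, 11.2 kb for sites in basal liver and at 6 h, and 6.43 kb for sites at 6 h alone. A site of the shared class lay within 10 kb of 8.67% (7.59 to 9.86%) of the sites at 6 h and 48 h and of 8.09% (7.70 to 8.49%) of those at 6 h alone. Among all 23212 sites this share was 8.13%, and among sites in basal liver and at 6 h it was 5.26% (3.29 to 7.93%). By chromosome, the share of sites in all 3 lists was between 7.30% (chromosome 2 and chromosome 12) and 10.5% (chromosome 11) on the autosomes. Chromosome X held 217 sites, of which 17 were in all 3 lists.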

How the data were processed

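XBP1 ChIP-seq of mouse liver was used as the deposited peak lists, 1 per library. Per the submitters' processing notes, Bowtie2 and MACS 1.4.2 were used with build mm9. Parameters and any control library are not stated in what was used here, and the input was not analysed here. The score the authors deposited per peak is read as −log10 p because its lowest value is 5.08 in each of the 3 lists used, and no file header states its scale. Groups were taken from sample titles.

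Peaks of the 3 lists that overlapped by at least 1 bp, directly or through another peak, formed a site, and a site's class is the set of lists that have a peak there. Where a list had several peaks in a site, the highest-scoring counted. Tied scores shared their mean rank, and a change of rank is given as a percent of the sites compared and as an absolute value in medians. Coordinates are 1-based. Intervals are exact Clopper-Pearson 95% intervals, for counting error only. The counting was checked on simulated data against bedtools 2.31.1. Python 3.11.15, NumPy 2.4.6, pandas 2.3.3, SciPy 1.17.1 and matplotlib 3.10.9 were used.

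Sites named are the 5 highest-scoring of each class (by the earliest list), the 5 shared sites with the best mean rank and, for each pair of lists, the 5 largest rises and falls among sites in the best 25% of either list. The widest site was singled out after its values were seen. The comparisons, the sites and the lists were chosen with earlier results of these data known. Planned counts for gene lists, marker genes of cell types and motifs were not run, since the gene table at hand is of another build. For the classes, the alternatives matched midpoints within 250 bp, asked for an overlap of 50% of both peaks, dropped scores under 10, took the 2482 best peaks of each list, or dropped peaks over 2 kb and those off chromosomes 1 to 19 and X. For ranks they were the rank within the whole list, the peak nearest to the middle of a site, and peaks that overlap one another directly. Peaks resized to 500 bp, ranks without the widest site, and the alternatives for width and for silenced shares were added after seeing the data.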

Additional observations from a re-analysis of the deposited data

How the results depend on the processing

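No paired analysis was possible because each condition had 1 library, and for the same reason no replicate could be left out; unknown read depth limits every count. Leaving out peaks over 2 kb and those off chromosomes 1 to 19 and X moved no share or median it was run on beyond its interval. The same held for peaks resized to 500 bp and peaks that overlap directly. It held too for the peak nearest to the middle of a site and for ranks without the widest site. The share of basal peaks found at both later times was 75.7% with midpoints within 250 bp, 42.7% with an overlap of 50% of both peaks and 50.8% with the 2482 best peaks of each list (equal numbers). The share of 6 h peaks found in neither list was 79.7%, 84.2% and 29.6% in the same order, and that of 48 h peaks found at 6 h and not in basal liver was 51.1%, 40.8% and 11.7%. Equal numbers shorten the 6 h and 48 h lists by construction, and the cause of the other shifts was not tested. Sites in all 3 lists, 2016 in the main setting, numbered 1936 with midpoints and 1560 with an overlap of 50%. They numbered 1669 with a score of at least 10 and 1244 with equal numbers of peaks. Their share with a silenced 6 h peak was 83.9% with a score of at least 10 and 92.0% with equal numbers. For sites at 6 h alone this share was 7.81% with midpoints, 9.85% with an overlap of 50%, 9.94% with the score and 52.7% with equal numbers. The ratio of 6 h to basal width over all 2016 shared sites, 1.94, was 1.76 with an overlap of 50% and 1.86 with the score. By rank within the whole list the median change was 31.1% of the list from basal liver to 6 h and 15.2% to 48 h, since 1979 of the 2016 shared sites stand nearer the top of the longer 6 h list. Of the 64 sites named, 54 kept their class with an overlap of 50%, 54 with a score of at least 10 and 41 with equal numbers. Of the 30 named changes of rank, 11 moved by over 25 percentage points with the rank in the whole list. These include all named falls from basal liver to 6 h and all named rises from 6 h to 48 h. None of the 30 turned its direction under the alternatives run.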

Other observations

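Per 6 h peak, stretches of the genome dense in 6 h peaks held about as many 48 h peaks as sparse ones and fewer basal peaks. Windows were grouped by the same 6 h count that divides the others, which by itself favours lower ratios in dense windows. In windows of 100 kb with a single 6 h peak, 20.3 peaks were called at 48 h and 12.0 in basal liver per 100 peaks at 6 h. In the 165 windows with 10 or more 6 h peaks, which held 1890 of them, the numbers were 19.9 and 8.10. The window on chromosome 9 (46000001 to 46100000) held 22 peaks at 6 h, 3 at 48 h and none in basal liver, and that on chromosome 13 (23800001 to 23900000) held 15, 3 and none. The window on chromosome 15 (58800001 to 58900000) held 16, 6 and 5. These windows were singled out after their counts were seen.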
